A study of Mus musculus with 6 samples.

Results

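Genes of arginine handling and polyamine synthesis were followed in activated group 2 innate lymphoid cells (aILC2s) of the mouse lung. The set holds 10 genes out of the 16381 genes with a value in the series. It was put together by name from the known pathway, with earlier results of these data known. The 8 described here are the arginine transporter gene *Slc7a1*, the arginine synthesis gene *Ass1*, ornithine decarboxylase (*Odc1*) with its protein regulators *Azin1*, *Oaz1* and *Oaz2*, and *Amd1* and *Srm*, which act in the steps that follow. All 10 had a value in every library and passed the filter on low values.

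The aILC2s came from the lungs of wild-type BALB/c mice that had received IL-33, an alarmin cytokine that activates ILC2s, at 0.5 µg per day for 3 days. They were sorted as cells carrying CD45, ST2 and CD127 and lacking lineage markers (CD11b, CD11c and Gr-1 of myeloid cells and CD3 and B220 of T and B cells among them), with a stated purity above 95%, and were kept in culture for 24 h. The melatonin group (3 libraries) received 250 µM melatonin and the vehicle group (3 libraries) received DMSO, its solvent. The methods describe the same IL-33 exposure, sort and culture for both groups, but they do not state whether these steps were done together. The labels do not state whether replicates came from separate cultures or animals, so the p-values measure only the spread between these libraries. In bulk RNA, a smaller number of cells that express a gene and less RNA of that gene per cell cannot be told apart.

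Arginase splits arginine into ornithine and urea. Ornithine decarboxylase turns ornithine into putrescine, and spermidine synthase and spermine synthase then add aminopropyl groups supplied by the product of S-adenosylmethionine decarboxylase. Polyamines hold their own synthesis in check through antizymes, proteins that bind ornithine decarboxylase and send it to the proteasome, while antizyme inhibitor sequesters antizyme. Polyamines are known for their part in cell growth and translation, and proliferating lymphocytes make more of them.

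Libraries had between 17056267 and 20511700 estimated counts, and mitochondrial genes took 0.48% to 0.68% of them in vehicle and 0.25% to 0.40% after melatonin, without overlap. Values are given as normalized counts, which are estimated counts divided by a scaling factor for each library. All 14 ILC2 markers examined had values, of which 8 were lower after melatonin, 2 were higher and 4, among them the lineage-defining *Gata3*, were not called, beside 24.7% lower and 24.5% higher among all genes tested. Among those that fell were *Il7r*, which encodes the sort marker CD127 (1995 to 1032), *Klrg1* (6799 to 1518), *Il13* (1876 to 409) and *Thy1* (389 to 53.7), and *Il1rl1*, which encodes the sort marker ST2, rose (8075 to 12802). The methods state that female mice were used, yet Y-linked transcripts were present in all 3 vehicle libraries and in melatonin replicate 1. They stood at 0 in melatonin replicates 2 and 3. *Xist*, a transcript of female cells, was at 5.81 to 13.6 normalized counts in vehicle and 0 in melatonin replicate 1. It was at 579 and 1091 in melatonin replicates 2 and 3. The 3 melatonin libraries were thus not all repeats of the same cells. Melatonin replicates 2 and 3 differed from every vehicle library in these transcripts as well as in treatment, which cannot be told apart there. Log2 fold changes from the 4 libraries with Y-linked transcripts are therefore given beside several genes. They are values with no test, since only 1 of these libraries had received melatonin. Those printed beside called genes all lie farther from 0 than the log2 fold change over all libraries. Not every called gene went that way. The log2 ratio of melatonin replicate 1 to the vehicle mean was -1.23 for *Ass1* and -0.52 for *Amd1*, against log2 fold changes of -1.40 and -0.54. Library numbers were consecutive within each group, so anything that went with this numbering and the treatment cannot be told apart.

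After melatonin, *Ass1*, *Srm*, *Odc1*, *Slc7a1* and *Amd1*, 5 of the 8 genes, were lower, *Oaz2* and *Oaz1* were higher, and *Azin1* passed the test in neither direction. The enzymes and the transporter that were called all fell, and the genes that rose were both antizymes. Calls were made with limma at an adjusted p under 0.05 over the 14419 genes tested. By that rule 24.7% of all genes tested were lower and 24.5% were higher, 49.2% in either direction, so calls were frequent throughout these libraries. The same 7 genes had groups without overlap, a pattern found in the lower direction for 30.3% and in the higher direction for 30.0% of all genes tested. The median log2 fold change was -0.58 over the 8 genes and -0.0046 over all genes tested.

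**Figure D1:**
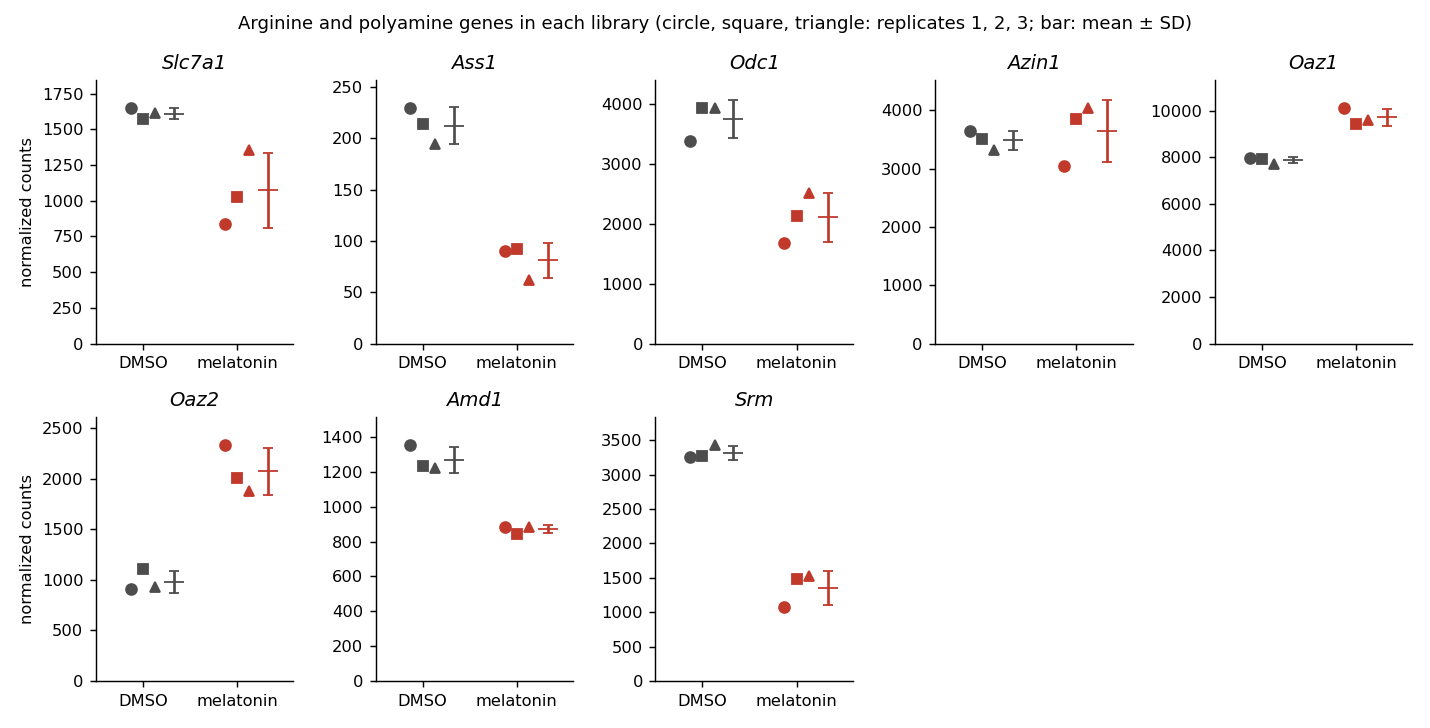
Normalized counts of each gene (vertical axes, linear, from 0) in the 3 DMSO and 3 melatonin libraries, with circles, squares and triangles for replicates 1, 2 and 3 and a bar for the mean ± SD. The melatonin libraries lie below all vehicle libraries for 5 genes and above them for *Oaz1* and *Oaz2*, while the groups overlap for *Azin1*.

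*Slc7a1* (ENSMUSG00000041313), on the minus strand of chromosome 5 of GRCm39 from 148264220 to 148336848, encodes CAT1, a main importer of cationic amino acids including arginine. It had 1649, 1569 and 1612 normalized counts in vehicle replicates 1 to 3 and 839, 1024 and 1356 in melatonin replicates 1 to 3. The groups did not overlap, but the melatonin libraries were spread widely and replicate 3 was the nearest to the vehicle level. The log2 fold change was -0.61 (SE 0.15, 95% interval -0.96 to -0.26, limma adjusted p = 0.010), with means of 1610 and 1073. Of the 7 calls it had the highest adjusted p in any alternative analysis, 0.043 in limma without the mean-variance trend. With only the libraries that hold Y-linked transcripts, 3 vehicle and 1 melatonin, the log2 fold change was -0.94.

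*Ass1* (ENSMUSG00000076441), on the plus strand of chromosome 2 from 31352181 to 31410862, encodes argininosuccinate synthase, which starts the rebuilding of arginine from citrulline. It had 229, 213 and 194 normalized counts in vehicle and 90.2, 91.9 and 61.4 in melatonin-treated cells. Every melatonin library was below 100, under the lowest vehicle library. The fall was 2.62-fold, with a log2 fold change of -1.40 (SE 0.20, limma adjusted p = 0.00062). *Asl*, whose enzyme completes the same route, had a log2 fold change of 0.026 (833 to 851, limma adjusted p = 0.85).

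*Odc1* (ENSMUSG00000011179), on the plus strand of chromosome 12 from 17594383 to 17601507, encodes the rate-limiting enzyme of polyamine synthesis. Its normalized counts were 3379, 3927 and 3933 in vehicle replicates 1 to 3 and 1687, 2125 and 2510 in melatonin replicates 1 to 3. All melatonin libraries were lower. The mean went from 3746 ± 318 (SD, n = 3) to 2108 ± 412 (SD, n = 3), 1.78-fold lower, with a log2 fold change of -0.84 (SE 0.14, limma adjusted p = 0.0014), and of -1.15 in the libraries with Y-linked transcripts.

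*Azin1* (ENSMUSG00000037458), on the minus strand of chromosome 15 from 38487539 to 38519785, encodes antizyme inhibitor, a relative of ornithine decarboxylase without its activity. It had 3639, 3505 and 3320 normalized counts in vehicle and 3044, 3848 and 4041 after melatonin. Melatonin replicate 1 was below the vehicle libraries and the other two were above them. The log2 fold change was 0.054 with a 95% interval from -0.20 to 0.30 (limma, adjusted p = 0.71).

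*Oaz1* (ENSMUSG00000035242), on the plus strand of chromosome 10 from 80662516 to 80665124, and *Oaz2* (ENSMUSG00000040652), on the plus strand of chromosome 9 from 65575283 to 65597582, encode antizymes. Full-length antizyme is made only when the ribosome slips by a base at a stop codon, an event that polyamines favour, so the amount of mRNA is only part of what sets the amount of protein. The sequences around this shift are shown because they are what sets antizyme genes apart from the others described here. In the lines below (GRCm39, plus strand, chr10:80664116-80664142 and chr9:65593541-65593567), the capitals mark the last codon read before the shift and the stop codon TGA, whose first base is skipped.
Oaz1: tcggtggtgcTCCTGAtgtccctcacc
Oaz2: tctgtggtgcTCCTGAtgcccctcacc

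Of the 27 bases shown, 25 are the same in both genes. In the annotation the shift comes after 68 codons in *Oaz1*, out of 227 codons, and after 32 codons in *Oaz2*, out of 189 codons. The skipped base is at position 80664129 of chromosome 10 in *Oaz1* and at position 65593554 of chromosome 9 in *Oaz2*, inside coding exons of both. RNA sequencing of this kind does not measure how often the shift took place.

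*Oaz1* had 7961, 7936 and 7716 normalized counts in vehicle replicates 1 to 3 and 10114, 9433 and 9600 in melatonin replicates 1 to 3. The groups were tight and did not overlap. The rise was small, 1.23-fold, with a log2 fold change of 0.30 (SE 0.07, limma adjusted p = 0.0070), and 0.54 after correction for transcript length. *Oaz2* had 915, 1105 and 926 normalized counts in vehicle and 2332, 2006 and 1885 after melatonin. Every melatonin library was above every vehicle library, and the mean was 2.11-fold higher, with a log2 fold change of 1.08 (SE 0.11, limma adjusted p = 0.00017), and of 1.25 in the libraries with Y-linked transcripts.

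The ratio of *Odc1* to *Oaz1* within a library is free of the scaling between libraries. Its log2 value was -1.24, -1.01 and -0.97 in vehicle replicates 1 to 3 and -2.58, -2.15 and -1.93 in melatonin replicates 1 to 3. The groups did not overlap, and the means differed by -1.15. The exact two-sided permutation test gave p = 0.1, the smallest value that 3 libraries against 3 can give. The log2 ratio of *Azin1* to *Oaz1* differed less, with means of -1.17 ± 0.04 (SD, n = 3) in vehicle and -1.42 ± 0.27 (SD, n = 3) after melatonin and again an exact permutation p of 0.1. The difference of -0.25 rested on melatonin replicate 1, at -1.73 against -1.29 and -1.25, and was -0.0960 without it, and with near-identical copies added the exact permutation p was 0.3.

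*Amd1* (ENSMUSG00000075232), on the minus strand of chromosome 10 from 40162797 to 40178185, encodes S-adenosylmethionine decarboxylase, the source of aminopropyl groups. It had 1353, 1232 and 1223 normalized counts in vehicle and 885, 845 and 886 after melatonin, without overlap. The melatonin libraries were closer to each other than those of any other gene of the set, with a coefficient of variation of 2.65%. The mean was 1.46-fold lower, with a log2 fold change of -0.54 (SE 0.08, limma adjusted p = 0.0010).

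*Srm* (ENSMUSG00000006442), on the plus strand of chromosome 4 from 148675940 to 148681792, encodes spermidine synthase. Its normalized counts were 3248, 3263 and 3425 in vehicle replicates 1 to 3 and 1072, 1475 and 1523 in melatonin replicates 1 to 3. The groups were far apart, and each was tight beside the gap between them. The mean was 2.44-fold lower, with a log2 fold change of -1.30 (SE 0.13, limma adjusted p = 0.00014), and of -1.63 in the libraries with Y-linked transcripts.

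**Figure D2:**
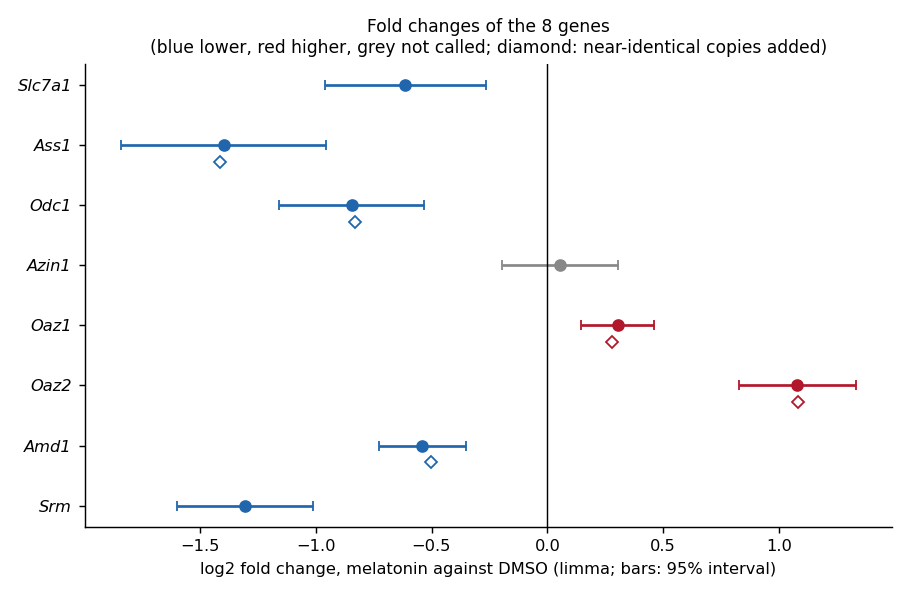
Log2 fold change of each gene, melatonin against DMSO (horizontal axis), with bars for the 95% interval from limma on 3 libraries per group. Diamonds give the value when near-identical gene copies are added. *Ass1* lies farthest to the left at -1.40 and *Oaz2* farthest to the right at 1.08, and the diamonds lie close to the points.

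The melatonin libraries differed among themselves more than the vehicle libraries for most of these genes. The coefficient of variation of *Slc7a1* was 2.48% in vehicle and 24.4% after melatonin, and that of *Srm* was 2.95% in vehicle and 18.3% after melatonin. For 5 of the 7 called genes the melatonin library farthest from the vehicle mean was replicate 1, the only melatonin library with Y-linked transcripts. *Ass1* (replicate 3) and *Amd1* (replicate 2) were the exceptions. The same count over all genes was not made, so it cannot be read as particular to these genes. The log2 ratio of *Srm* to the vehicle mean was -1.63 in melatonin replicate 1, -1.17 in replicate 2 and -1.12 in replicate 3.

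Markers of macrophages, cells that the sort gate against CD11b and CD11c would remove, also differed between the groups. Of 14 macrophage markers, 13 were listed and 11 were tested, of which 5 were lower after melatonin (*Adgre1*, *Cd68*, *Lyz2*, *Retnla* and *Itgam*) and none was higher, beside 24.7% lower and 24.5% higher among all genes tested. Their summed normalized counts were 4237, 4877 and 4805 in vehicle replicates 1 to 3 and 427, 2459 and 1848 in melatonin replicates 1 to 3. In vehicle most of the sum was *Chil3*, at 2373 to 3460 in vehicle and 54.2 to 1640 after melatonin, which was not called (limma, adjusted p = 0.055). The defining marker *Adgre1*, which encodes F4/80, was low, at 4.20 to 32.7 in vehicle and 1.87 to 2.19 after melatonin, and *C1qa* (1.05 to 15.9 in vehicle, not called) and *C1qb* (3.15 to 7.50 in vehicle, not tested) stood at 0 in all 3 melatonin libraries. The part of such cells in the differences of the arginine and polyamine genes was not tested.

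Per kilobase of transcript, *Oaz1* was the most abundant of the 8 in vehicle, with a mean of 7539 normalized counts per kilobase, ahead of *Srm* (2439), *Odc1* (1620), *Azin1* (661), *Oaz2* (524), *Amd1* (328), *Slc7a1* (220) and *Ass1* (121). The ranges of neighbours in this order did not overlap in the vehicle libraries. After melatonin *Oaz1* was still first at 9306 normalized counts per kilobase. The next 3 places were held by *Oaz2* (1107), *Srm* (999) and *Odc1* (911), whose ranges overlapped, and the range of *Odc1* also overlapped that of *Azin1* (690), so the order from place 2 to place 5 was not fully resolved. These levels follow the division of reads among gene copies described next. *Oaz2* moved from place 5 to place 2 in the order of means. Among all genes with a transcript length, *Srm* went from percentile 95.5 to percentile 88.9 of levels per kilobase and *Oaz2* from percentile 80.6 to percentile 90.1.

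The values of 5 of these genes depend on how the reads were divided among near-identical copies, here defined as transcripts of other genes that match over at least 300 bases with at least 95% identity. *Oaz1* shares 685 bases at 99.7% identity with the processed pseudogene *Oaz1-ps*, which was given more reads than *Oaz1* itself, at 13858, 13353 and 14073 normalized counts in vehicle and 17808, 15418 and 16509 after melatonin. *Amd1* shares 3202 bases at 99.6% identity with *Amd2*, a protein-coding copy, and *Ass1* shares 1240 bases at 99.5% identity with the pseudogene *Gm5424*. *Odc1* has 4 such copies with values in the table (*Gm7993*, *Gm17709*, *Gm9115* and *Gm9260*), and *Oaz2* has *Oaz2-ps*. The level of these 5 genes taken alone is therefore uncertain.

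Adding the copies left each direction and each call in place. The share of the summed value assigned to the gene itself was similar in vehicle and melatonin-treated cells, at 36.4% and 37.0% for *Oaz1*, 48.4% and 47.2% for *Amd1*, 35.3% and 35.8% for *Ass1*, 67.7% and 67.1% for *Odc1* and 95.1% and 94.9% for *Oaz2*. With copies, the log2 fold change was -1.41 for *Ass1*, -0.83 for *Odc1*, 0.28 for *Oaz1*, 1.08 for *Oaz2* and -0.50 for *Amd1*. The highest adjusted p among them was 0.017, for *Oaz1* (limma).

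**Figure D3:**
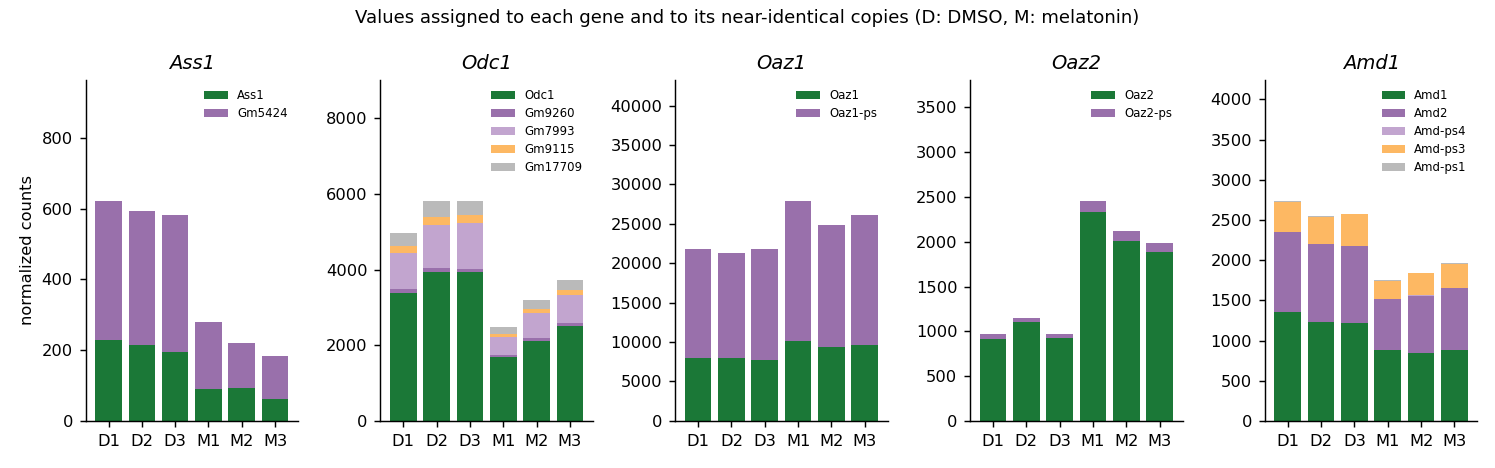
Normalized counts (linear axes from 0) given to each of 5 genes, in green, and stacked on them those given to their near-identical copies, in DMSO (D1 to D3) and melatonin (M1 to M3) libraries. *Oaz1-ps* takes more of the *Oaz1* total than *Oaz1* does, and the proportions are alike in both groups.

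The promoters of the 8 genes, taken as 250 bases before to 50 bases after the start of the reference transcript, were searched on both strands for CACGTG, the E-box bound by MYC and by circadian clock factors, and for TGACNNNGC, the core of the antioxidant response element bound by NRF2. *Srm* alone held the E-box, which 8.79% of 16333 promoters of listed genes hold. *Oaz1* alone held the second motif, which 13.2% of them hold. The windows around both matches are shown because they are the only places where these letters occur near the starts of the 8 genes. The capitals mark the motif (GRCm39, plus strand, chr4:148675760-148675821 for *Srm* and chr10:80662449-80662513 for *Oaz1*).
Srm: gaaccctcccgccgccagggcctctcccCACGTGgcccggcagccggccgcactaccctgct
Oaz1: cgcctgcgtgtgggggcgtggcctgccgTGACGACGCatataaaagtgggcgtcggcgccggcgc

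Counted in bases from the transcript start, the E-box begins at -152 in *Srm* and the other motif at -43 in *Oaz1*. No binding was measured. *Myc*, a transcription factor known to act on *Odc1* and *Srm*, had a mean of 2649 normalized counts in vehicle and 1852 after melatonin, a log2 fold change of -0.53 (limma, adjusted p = 0.0080), and of -0.84 in the libraries with Y-linked transcripts.

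The neighbouring genes of the pathway were taken from lists drawn up by function, also with earlier results of these data known. They name 43 genes, of which 36 were listed with a value and 34 tested. Of these, 9 rose, 12 fell and 13 did not pass the test, with a median log2 fold change of -0.12. Of all genes tested, 24.5% were higher and 24.7% lower. Among the list genes named below, *Slc7a3*, *Sms* and *Sat1* lie on the X chromosome. The part of the difference in Y-linked transcripts and *Xist* in their values was not tested.

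In arginine supply, 1 of 7 tested genes was higher and 2 were lower. *Slc3a2*, the heavy chain shared by several amino acid exchangers, rose from 10568 to 15641 normalized counts (log2 fold change 0.56, limma adjusted p = 0.00052). *Slc7a2* and *Slc7a3*, cationic amino acid transporters like *Slc7a1*, fell from 73.1 to 30.5 and from 786 to 358. The *Slc7a2* call (limma, adjusted p = 0.019) and the *Slc7a3* call (limma, adjusted p = 0.027) were both lost when single libraries were left out. *Slc7a2* lost it without vehicle replicate 1 or 3 or melatonin replicate 3 (limma adjusted p between 0.052 and 0.071). Its log2 fold change was -1.42, and -1.97 in the libraries with Y-linked transcripts. *Slc7a3* lost its call without any one of the vehicle replicates (limma adjusted p between 0.065 and 0.075) or without the mean-variance trend (0.086). The log2 fold change of *Slc7a3* was -1.35, and it moved to -0.73 without melatonin replicate 1, which had 131 normalized counts against 457 and 488 in the others, and to -2.58 in the libraries with Y-linked transcripts.

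Among other genes of arginine use, 1 of 5 tested was higher and 1 was lower. *Oat*, ornithine aminotransferase, which takes ornithine towards proline and glutamate, rose from 3022 to 4291 normalized counts (log2 fold change 0.50, limma adjusted p = 0.0012). *Gatm*, which uses arginine in creatine synthesis, fell from 815 to 393 (log2 fold change -1.14, limma adjusted p = 0.0089), and its log2 fold change was -0.75 without melatonin replicate 1 and -1.92 in the libraries with Y-linked transcripts. *Nos2*, the inducible nitric oxide synthase that competes with arginase for arginine, was not among the listed genes.

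Among the other genes of polyamine synthesis, *Sms*, spermine synthase, had 681 normalized counts in vehicle and 570 after melatonin and was not called (log2 fold change -0.26, limma adjusted p = 0.12). The near-identical *Amd2* fell alongside *Amd1* (log2 fold change -0.48, limma adjusted p = 0.0043). *Mat2b*, a regulatory subunit in the synthesis of S-adenosylmethionine, rose (log2 fold change 0.46, limma adjusted p = 0.0019), while *Mat2a* (0.13) and *Mtap* (0.011), which recycles the methylthioadenosine left by both synthases, were not called. *Sms* too shares its reads, with 3 pseudogene copies in the table, and between 28.3% and 35.2% of the summed value stood on *Sms*.

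In polyamine breakdown and transport, 3 of 6 tested genes were higher and 2 were lower. *Sat1*, which acetylates spermidine and spermine for export or breakdown, had 1761, 1770 and 1701 normalized counts in vehicle and 2645, 2740 and 2777 after melatonin. The groups were tight and apart, and the log2 fold change was 0.64 (limma, adjusted p = 0.00023). *Atp13a2*, which exports polyamines from lysosomes, rose by 0.51 on the log2 scale (limma, adjusted p = 0.0012). The related *Atp13a3* had a log2 fold change of 0.39 (limma, adjusted p = 0.036), a call lost without any one of the vehicle replicates or without melatonin replicate 2 (limma adjusted p between 0.055 and 0.11). It was also lost with the replicate block (0.064), upper quartile scaling (0.054), quantile normalization (0.066), no mean-variance trend (0.082) and the length correction (0.073).

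The oxidases of this list moved the other way. *Paox*, which oxidizes acetylated polyamines, fell from 167 to 72.9 normalized counts (log2 fold change -1.19, limma adjusted p = 0.00066), with only 27.1% to 36.9% of its sum with a near-identical pseudogene standing on *Paox* itself. *Smox*, spermine oxidase, fell from 3607 to 2942 (log2 fold change -0.30, limma adjusted p = 0.0094).

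Spermidine is also the donor for hypusine, a modified lysine found in the translation factor eIF5A. All 4 genes of this route were lower, beside 24.7% of all genes tested. No test of the list was run. *Eif5a* itself had 44630, 46775 and 45039 normalized counts in vehicle and 19301, 27013 and 26323 after melatonin. The groups were far apart, with a log2 fold change of -0.93 (limma, adjusted p = 0.00061), and of -1.24 in the libraries with Y-linked transcripts. *Dhps*, deoxyhypusine synthase, fell from 866 to 420 (log2 fold change -1.05, limma adjusted p = 0.00021), and *Eif5a2* and *Dohh*, the hydroxylase of the last step, had log2 fold changes of -0.63 and -0.42 (limma, adjusted p = 0.0084 and 0.0062).

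Of the genes through which mTORC1 senses arginine, *Castor1*, a cytosolic arginine sensor, fell from 1689 to 814 normalized counts (log2 fold change -1.05, limma adjusted p = 5.6e-05) and its relative *Castor2* rose from 384 to 570 (log2 fold change 0.57, limma adjusted p = 0.0020). *Slc38a9*, the lysosomal sensor, was not called (log2 fold change 0.42, limma adjusted p = 0.063). Among the regulators listed, *Stat6*, which carries IL-4 and IL-13 signals, rose (log2 fold change 0.48, limma adjusted p = 0.0041), and *Il4ra*, the receptor chain upstream of it, had a log2 fold change of -0.075 (limma, adjusted p = 0.43).

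*Cebpb*, another transcription factor, had 12.1, 59.6 and 189 normalized counts in vehicle and 385, 606 and 247 after melatonin. The vehicle libraries alone differed widely, although the groups did not overlap. Its log2 fold change of 2.86 (limma, adjusted p = 0.017) lost its call without melatonin replicate 2, where the adjusted p was 0.064, and without the mean-variance trend, where it was also 0.064. The value was 1.85 without vehicle replicate 1 and 3.78 without vehicle replicate 3.

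**Figure D4:**
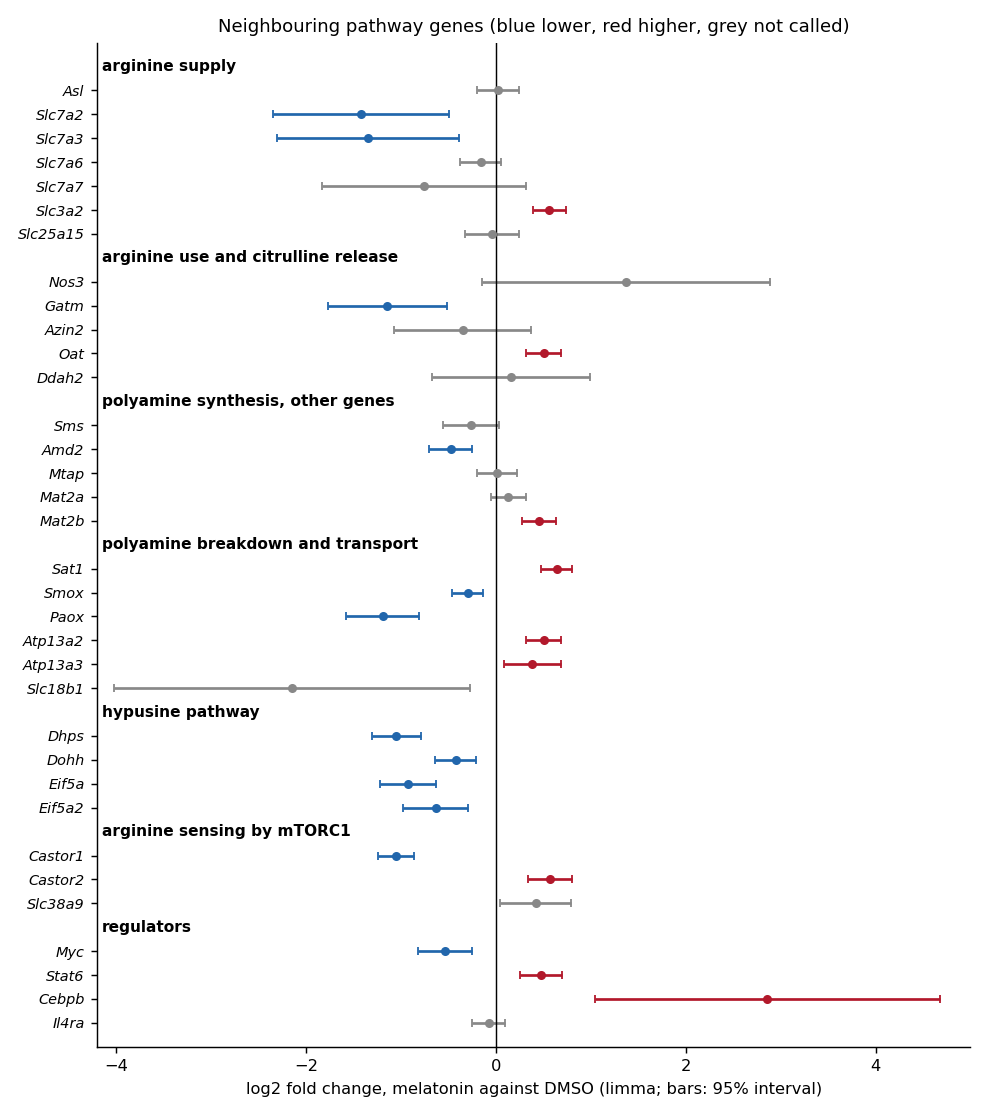
Log2 fold change (melatonin against DMSO, horizontal axis) with 95% intervals from limma for the 34 tested genes of the neighbouring lists, 3 libraries per group, in blue where lower, red where higher and grey where not called. The 4 genes of the hypusine pathway all lie to the left of 0, while the other lists hold points on both sides.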

How the data were processed

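Bulk RNA-seq of 3 melatonin-treated and 3 vehicle aILC2 libraries was used. Per the study's methods, the authors aligned reads in Partek Flow 12.9.0 with STAR 2.7.8a to mm39, quantified Gencode M33 genes by expectation maximization, removed genes under 10 counts in all samples and applied the median ratio scaling of DESeq2. The table still holds genes under 10 in every library. These deposited values, a signal here called normalized counts, divide reads between similar genes. Only 72.0% to 73.6% of values under 60 were whole multiples of 1 read (tolerance 0.01), so no count model was used, and depth was estimated from the value of 1 read.

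limma 3.58.1 (R 4.3.3) with a mean-variance trend was fitted to log2(value + 1) for 14419 genes that reached 10 in some library, and p-values were adjusted by Benjamini-Hochberg with a threshold of 0.05. Fold changes on this scale understate those of low genes. On simulated data the fit was tested for recovery of known changes. Positions, lengths and sequences came from GRCm39 with its GENCODE annotation. Tables and figures used pandas 2.3.3, numpy 2.4.6, scipy 1.17.1 and matplotlib 3.10.9.

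The genes and lists were chosen with earlier results of these data known. Named genes are the 10 genes, up to 3 called genes per direction and list with a mean of at least 20, listed genes not called, *Dohh* as a further gene of its list, and the 5 genes most correlated with *Odc1*. Of the 10 genes, 2 are not reported here. *Cd68* and other markers were named from marker lists.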

Additional observations from a re-analysis of the deposited data

How the results depend on the processing

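The 7 calls kept their direction and their side of the threshold under every alternative computed for them, namely other pseudocounts, filters and scalings, limma with sample weights or no trend, voom on estimated counts, a transcript length correction, each library left out in turn and, chosen after seeing the data, the sums with near-identical copies. The libraries with Y-linked transcripts alone (3 vehicle and 1 melatonin, also chosen after seeing the data) gave the same directions for these 7 and are taken as values with no test, since the lone melatonin library has no spread of its own. Over all of these, the log2 fold change of *Ass1* lay between -1.50 and -1.21, of *Srm* between -1.63 and -1.14, of *Odc1* between -1.15 and -0.69, of *Slc7a1* between -0.94 and -0.45, of *Amd1* between -0.66 and -0.49, of *Oaz1* between 0.25 and 0.54 and of *Oaz2* between 0.99 and 1.25.

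*Azin1*, which was called in none of them, changed sign. It was at -0.086 with the length correction, -0.20 in the libraries with Y-linked transcripts and between -0.026 and 0.18 with a library left out. Genes of the lists that were not called also changed sign. *Asl* was at -0.024 with upper quartile scaling, -0.034 with quantile normalization, -0.048 with sample weights, -0.038 with the length correction and between -0.041 and 0.10 with a library left out. *Mtap* was at -0.038, -0.0088 and -0.070 with upper quartile scaling, quantile normalization and the length correction, -0.13 with Y-linked libraries and between -0.071 and 0.083 with a library left out. *Ddah2* was at -0.18 with sample weights and between -0.18 and 0.49 with a library left out, and *Slc25a15* at 0.049 and between -0.13 and 0.054. *Azin2* was at 0.12 with Y-linked libraries. Other genes not called passed the threshold in some settings (limma adjusted p): *Sms* (0.046), *Il4ra* (0.032) and *Slc7a6* (0.042) with the length correction, *Slc38a9* with scaling to the same total (0.047) and without melatonin replicate 2 (0.027), *Mat2a* (0.017) and *Nos3* (0.031) with quantile normalization, *Nos3* with sample weights (0.049), and *Slc18b1* without a filter (0.048) and without vehicle replicate 1 (0.041). The cause was not tested.

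The labels do not state a pairing of replicates with the same number. The correlation of their deviations from the group means was -0.11, 0.14 and -0.19 over 9990 genes. The largest of any pair was 0.31, for vehicle replicate 1 with melatonin replicate 3. With 3 libraries per group such values cannot show whether replicates were paired. With the replicate number as a block, 3160 genes were higher and 3278 lower, against 3529 and 3565. Depth limits scarce genes such as *Slc7a7*, at 6.03 to 27.2 normalized counts per library.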

Other observations

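Genes with means of 100 or more were compared with *Odc1* over the 6 libraries. The set itself, pseudogenes and predicted or unnamed genes were left out, which left 9224. Those whose log2 values followed *Odc1* most closely were *Gatad1* (Pearson r 0.998), *Phf2* (0.997), *Ubxn1* (0.996), *Slc25a38* (0.995) and *Urb2* (0.992). *Gatad1* had 559, 626 and 605 normalized counts in vehicle and 328, 385 and 431 after melatonin, and *Urb2* had 1097, 1180 and 1341 in vehicle and 529, 638 and 763 after melatonin. These are descriptions over 6 libraries that share the difference between groups, which by itself gives a high r.

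Markers of other cell types also differed between the groups. The summed neutrophil markers were between 27.2 and 96.1 normalized counts in vehicle and between 1.87 and 8.74 after melatonin, and the summed T cell markers were between 1284 and 1400 in vehicle and between 498 and 896 after melatonin, with *Cd4*, *Cd8a*, *Cd8b1* and *Cd5* not among the listed genes. The summed B cell markers were between 289 and 322 in vehicle and between 131 and 162 after melatonin, with *Cd79b* lower, and *Pecam1*, the only endothelial or fibroblast marker listed, was lower, at 1001 to 1066 in vehicle and 310 to 416 after melatonin. The summed epithelial markers overlapped, at 895 to 2238 in vehicle and 1039 to 1237 after melatonin, but single markers moved in opposite directions. *Scgb1a1* (95.2, 21.5 and 1045 in vehicle, at most 1.01 after melatonin), *Sftpc* (155, 122 and 389 in vehicle, at most 6.54 after melatonin) and *Krt8* (4.67, 8.35 and 105 in vehicle, 0 after melatonin) were lower, with vehicle replicate 3 far above the other vehicle libraries in each, while *Epcam*, which made up nearly all of the sum after melatonin, was higher (667 to 1097). The sort gate, which asked for CD45 and excluded cells with CD3, CD4, CD5, B220, CD11b or Gr-1, would remove neutrophils, T cells, B cells, endothelium and epithelium. Their part in the differences of the arginine and polyamine genes was not tested.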
